A study of Mus musculus with 8 samples.

Results

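The receptor tyrosine kinases Tyro3, Axl and Mertk form the TAM receptor family, and Gas6 and protein S, the product of Pros1, are their ligands. The family was chosen by the measured rise of the Tyro3 transcript after knockdown of Pcgf1 on these same arrays, so the difference of Tyro3 between the groups is given as a description, with no p-value or call. The other 4 genes belong by name and function, not by their values. Through the accession of each probe the 5 genes matched 8 of 41174 probes on the array, 3 for Tyro3, 2 for Pros1 and 1 each for Axl, Mertk and Gas6, among 32970 genes in all. The comparison across genes took a probe only if the scanner software called it well above background on every array of 1 group or of both. Tyro3 (on 2 of its 3 probes), Gas6 and Pros1 passed that filter, and Axl and Mertk did not.

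The arrays measured messenger RNA in 8 mouse cultures enriched for haematopoietic stem and progenitor cells, abbreviated HSPCs, with 1 one-colour array per culture. All cells came from the bone marrow of Runx1 Δ/Δ mice of a mixed C57Bl/6 and 129SvJ strain, so the controls also carried the Runx1 genotype, and no culture with intact Runx1 was analysed here. Lineage-depleted marrow was cultured for 2 days in medium with SCF, Flt3 ligand, IL-11 and IL-3 and transduced with a retroviral shRNA against Pcgf1 or a control shRNA, followed by puromycin selection for 36 h. Each of 4 mice gave 1 culture to each group, so a control shRNA and a Pcgf1 shRNA culture could be compared within a mouse. Neither the age of the mice nor the driver of the Runx1 deletion is given in the sources used here. The labels name the Pcgf1 shRNA without its sequence or a second hairpin, and effects of the hairpin on other transcripts cannot be told apart from those of losing Pcgf1. Bulk RNA of a culture does not tell fewer cells of a type from less RNA per cell.

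Gas6 and protein S carry a Gla domain, which vitamin K-dependent carboxylation enables to bind phosphatidylserine on dying cells, while their other end binds the receptor ectodomain. Gas6 activates each TAM receptor, whereas protein S acts on Tyro3 and Mertk. In macrophages and dendritic cells Mertk and Axl drive the engulfment of apoptotic cells and dampen inflammatory signalling, and Tyro3 is best known from the nervous system, platelets and dendritic cells. The product of Pcgf1 belongs to the Polycomb complex PRC1.1, which the subunit Kdm2b brings to unmethylated CpG dinucleotides.

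Because that recruitment reads CpG dinucleotides, the promoters of the 3 receptor genes are shown with every CpG in capitals. Each stretch holds the 250 bases before and the 50 after the transcript start in RefSeq (assembly GRCm38.p6), 5′ to 3′ on the gene's strand, at chr2:119799264-119799563 (plus strand) for Tyro3, chr7:25788684-25788983 (minus strand) for Axl and chr2:128698665-128698964 (plus strand) for Mertk.
Tyro3: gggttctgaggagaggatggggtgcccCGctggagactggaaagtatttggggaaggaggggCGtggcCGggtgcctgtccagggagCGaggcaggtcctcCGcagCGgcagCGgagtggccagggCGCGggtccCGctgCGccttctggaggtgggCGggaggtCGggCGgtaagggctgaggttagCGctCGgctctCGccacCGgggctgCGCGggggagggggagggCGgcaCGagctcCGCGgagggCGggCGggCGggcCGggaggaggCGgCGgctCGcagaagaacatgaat
Axl: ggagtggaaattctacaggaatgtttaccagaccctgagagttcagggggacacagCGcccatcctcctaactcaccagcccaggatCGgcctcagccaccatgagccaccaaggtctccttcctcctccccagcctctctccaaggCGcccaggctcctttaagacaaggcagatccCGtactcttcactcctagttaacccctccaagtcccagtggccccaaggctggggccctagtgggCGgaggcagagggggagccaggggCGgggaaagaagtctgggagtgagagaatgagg
Mertk: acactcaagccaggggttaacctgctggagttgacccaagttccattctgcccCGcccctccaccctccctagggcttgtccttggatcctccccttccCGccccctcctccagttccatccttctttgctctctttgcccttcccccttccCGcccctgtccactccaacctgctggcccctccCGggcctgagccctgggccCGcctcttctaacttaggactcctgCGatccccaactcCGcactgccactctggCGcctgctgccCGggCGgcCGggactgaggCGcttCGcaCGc
The Tyro3 stretch held 31 CpG dinucleotides, the Mertk stretch 14 and the Axl stretch 6, and those of the ligand genes held 17 (Gas6) and 21 (Pros1). Of 32851 mouse promoters of the same length 10.6% had at least as many as Tyro3, 36.3% as many as Mertk and 56.4% as many as Axl, and the median was 7. The core binding factor motif TGTGGT, searched on both strands, was found in 0 of the 5 stretches and in 16.8% of all promoters. These counts describe the letters of each window and carry no measurement of binding.

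Tyro3 transcript levels were about 2-fold higher with the Pcgf1 shRNA on the 2 probes that were well above background on every array. Axl read lower in each mouse, close to the detection limit. Mertk read lower in 3 mice and higher in mouse 4. The ligands Gas6 and Pros1 did not pass the test and had changes near 0, with mice differing more than groups. Values are log2 of the processed spot intensity, shifted so that the 75th percentile of each array is 0.

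**Figure D1:**
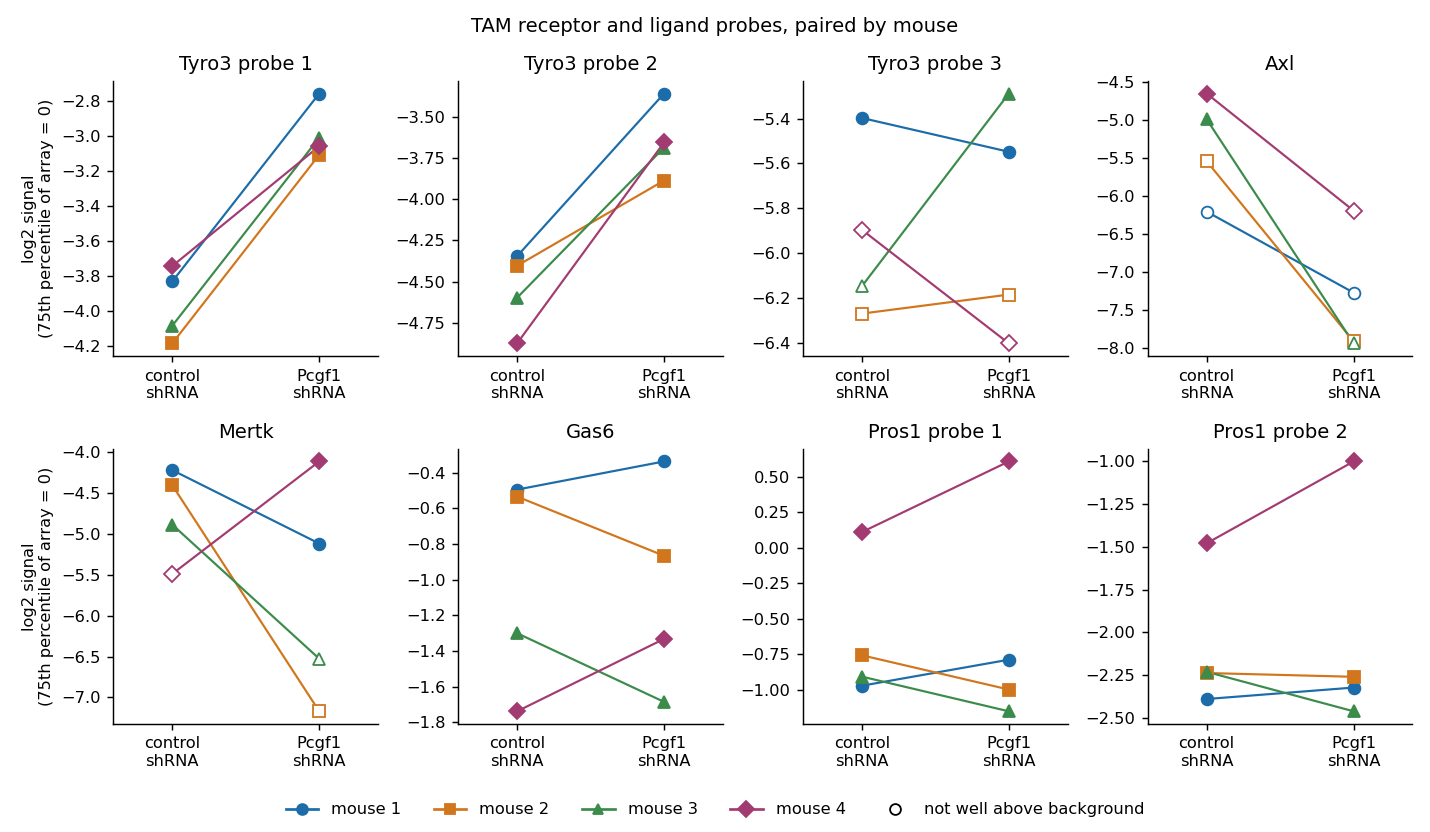
Log2 signal of the 8 probes (75th percentile of each array at 0; each panel has its own vertical scale) with the control and the Pcgf1 shRNA, lines joining both cultures of a mouse and open symbols marking arrays not well above background. Tyro3 probes 1 and 2 are higher with the Pcgf1 shRNA in each of the 4 mice, Axl is lower in each, and mouse 4 stands apart on both Pros1 probes.

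Tyro3 encodes a receptor for both Gas6 and protein S. On its brightest probe (A_52_P581056, called probe 1) the log2 signal with the control shRNA was −3.83, −4.19, −4.09 and −3.74 in mice 1 to 4. With the Pcgf1 shRNA it was −2.76, −3.11, −3.01 and −3.06. The lowest Pcgf1 shRNA culture lay above the highest control culture. Ranges that did not overlap in this direction were found for 4.24% of the 17302 genes kept by the filter (2.9% in the opposite direction), a higher reading in 4 of 4 mice for 15.5%, and since Tyro3 was chosen for its rise nothing is read from its being among them. The group means were −3.96 ± 0.21 (SD, n = 4) and −2.98 ± 0.16 (n = 4), and the mean within-mouse difference was 0.98 ± 0.20 (SD, n = 4 mice), a 1.97-fold higher level. In single mice the rise was 2.11-fold in mouse 1, 2.11-fold in mouse 2, 2.11-fold in mouse 3 and 1.61-fold in mouse 4. The mean log2 difference was 1.08 for mice 1 and 2, which shared 1 slide, and 0.88 for mice 3 and 4, which shared the other. Among 17301 genes with a test 78, Tyro3 included, had a log2 change at least as high.

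The second Tyro3 probe (A_51_P456266) gave a similar difference. Its log2 signal was −4.35, −4.40, −4.60 and −4.88 in the controls of mice 1 to 4 and −3.36, −3.89, −3.68 and −3.65 with the Pcgf1 shRNA. Again the 2 groups did not overlap. The mean within-mouse difference was 0.91 ± 0.29 (SD, n = 4), 1.88-fold, but the order of the mice differed from that on probe 1, with mouse 4 highest (2.34-fold) and mouse 2 lowest (1.43-fold). The third probe (A_52_P411629) stood well above background on 1 control array and 2 arrays with the Pcgf1 shRNA, and it showed no common direction. Its within-mouse differences were −0.15, 0.08, 0.86 and −0.51, with a mean of 0.07 ± 0.58 (SD, n = 4). All 3 probes carry the accession of the same transcript, and their places in it were not analysed here.

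Tyro3 was a dim transcript on these arrays. Before any normalization, the raw median intensity of probe 1 exceeded its local background by 37.0 to 58.5 scanner units on the control arrays and by 88.5 to 109 units on the arrays with the Pcgf1 shRNA. On probe 2 the excess was 28.5 to 37.0 units against 49.0 to 65.0 units. The raw ranges of the 2 groups did not overlap on either probe, from which nothing is read, as Tyro3 was chosen for its rise. Raw units also carry the brightness of each array. The 75th percentile of processed intensity was 519 to 704 on the control arrays and 545 to 854 with the Pcgf1 shRNA. It was higher with the Pcgf1 shRNA in mice 2, 3 and 4 and lower in mouse 1. The processed intensity of probe 1 was 6.33 to 9.52 times the scanner software's own error estimate for the spot. With normexp background correction, which adds an offset of 50 units to every spot, the log2 difference of Tyro3 was 0.38.

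**Figure D2:**
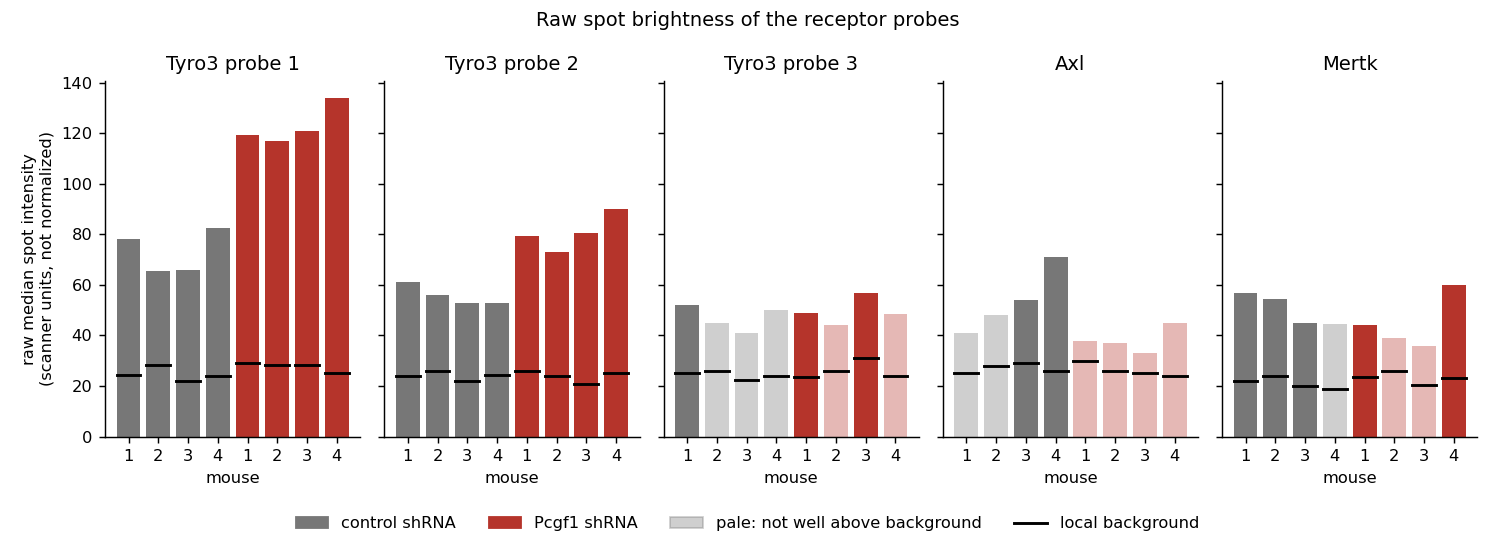
Raw median spot intensity in scanner units, not normalized, of the 5 receptor probes on each array by mouse, grey for the control shRNA and red for the Pcgf1 shRNA, with the local background as a black line and pale bars for spots not well above background. Tyro3 probes 1 and 2 clear their background on each array, whereas Axl is pale on all 4 arrays with the Pcgf1 shRNA.

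Axl encodes the receptor that responds to Gas6 and is induced by interferon in myeloid cells. Its single probe (A_52_P311787) was well above background on 2 of 4 control arrays, those of mice 3 and 4, and on 0 of 4 arrays with the Pcgf1 shRNA. The log2 signal in the controls of mice 1 to 4 was −6.20, −5.54, −4.99 and −4.65. With the Pcgf1 shRNA it was −7.27, −7.92, −7.94 and −6.19. The ranges of the groups met at the control of mouse 1 and the Pcgf1 shRNA culture of mouse 4, and within each mouse the Pcgf1 shRNA culture was the lower. A lower reading in 4 of 4 mice was found for 11.1% of all 32970 genes without a filter on dim probes.

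The measured Axl signal averaged −5.34 ± 0.68 (SD, n = 4) in the controls and −7.33 ± 0.82 (SD, n = 4) after knockdown, a within-mouse difference of −1.99 ± 0.84 (SD, n = 4). No array with the Pcgf1 shRNA measured Axl above background, so its level there is uncertain, and in mice 1 and 2 neither culture measured it. The controls of mice 3 and 4 were set against the lowest signal called above background on the Pcgf1 shRNA array of the same mouse. Axl was 1.58-fold higher in the control of mouse 3 and 2.35-fold higher in that of mouse 4. These folds are not strict minima, since an uncalled spot can read above the lowest called signal. Axl was too dim for the comparison across genes. Fitted without the filter, limma gave it an adjusted p of 0.280 (0.218 with mouse as a block), where 0 of 32969 genes passed and 2199 had an unadjusted p under 0.05. With normexp correction the difference was −0.41.

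Mertk encodes the main engulfment receptor of tissue macrophages. Its probe (A_51_P366138) cleared the background on the control arrays of mice 1, 2 and 3 and on the Pcgf1 shRNA arrays of mice 1 and 4. The control values were −4.22, −4.41, −4.89 and −5.49 in mice 1 to 4, and the values with the Pcgf1 shRNA were −5.12, −7.17, −6.53 and −4.12. Mertk read lower with the Pcgf1 shRNA in mice 1, 2 and 3 and higher in mouse 4. The control spot of mouse 4, not called well above background, read above the lowest called signal of its array (−5.56). The 2.59-fold higher reading with the Pcgf1 shRNA in that mouse is thus a ratio of measured values, not a minimum. In mice 2 and 3 the Pcgf1 shRNA culture was the one not well above background. Against the lowest signal called above background on its array, the control was 2.35-fold and 1.69-fold higher. As an uncalled spot can read above that signal, these folds are not strict minima. The mean difference of the measured values was −0.98 ± 1.75 (SD, n = 4), smaller than its spread between mice, and −0.29 with normexp correction. Without mouse 4 it was −1.77, and without mouse 2 it was −0.39. Without the filter on dim probes, limma gave an adjusted p of 0.923 (0.736 with mouse as a block).

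Gas6 encodes the ligand of all TAM receptors and was well above background on all 8 arrays. Its log2 signal was −0.50, −0.53, −1.30 and −1.74 in the controls of mice 1 to 4 and −0.34, −0.87, −1.69 and −1.33 with the Pcgf1 shRNA. The 4 arrays of mice 1 and 2 lay above the 4 arrays of mice 3 and 4 whatever the shRNA. As the slides split the mice in the same way, mouse and slide cannot be told apart here. The change with the Pcgf1 shRNA was −0.04 (SE 0.36; 95% interval −0.87 to 0.79; limma adjusted p 0.981). A fit with mouse as a block gave an interval of −0.41 to 0.33 and an adjusted p of 0.908. Within the slides the difference was −0.09 (mice 1 and 2) and 0.01 (mice 3 and 4). Gas6 was higher with the Pcgf1 shRNA in 2 mice and lower in 2.

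Pros1 encodes protein S, a plasma anticoagulant as well as a TAM ligand, and both of its probes were above background on all 8 arrays. On the brighter probe (A_51_P393426) the controls of mice 1 to 4 read −0.97, −0.76, −0.91 and 0.11. The cultures with the Pcgf1 shRNA read −0.79, −1.0, −1.15 and 0.61. Mouse 4 was the highest in both groups, 2.44-fold above the mean of the other mice on this probe and 2.11-fold on the second. The change was 0.05 (SE 0.41; 95% interval −0.89 to 0.98; limma adjusted p 0.978). The fit with a block for each mouse gave an interval of −0.30 to 0.40 and an adjusted p of 0.873. The second probe (A_52_P909274) changed by 0.07 ± 0.30 (SD, n = 4 mice). Both probes placed mouse 4 first in each group.

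Neither ligand passed a limma adjusted p of 0.05 or an unadjusted p of 0.05 (0.918 for Gas6 and 0.908 for Pros1). Over all 17301 genes tested 0.763% passed the adjusted threshold, 0.595% being higher and 0.168% lower with the Pcgf1 shRNA. Gas6 and Pros1 went the same way within each mouse, and neither had the same sign in all mice. In mouse 4 Gas6 and Pros1 were higher with the Pcgf1 shRNA, by 0.41 and 0.50 on the log2 scale, and in mouse 1 by 0.16 and 0.18. In mice 2 and 3 both were lower, by −0.33 and −0.24 in mouse 2 and −0.39 and −0.24 in mouse 3. Axl read lower and Tyro3 probe 1 higher in each of these mice.

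**Figure D3:**
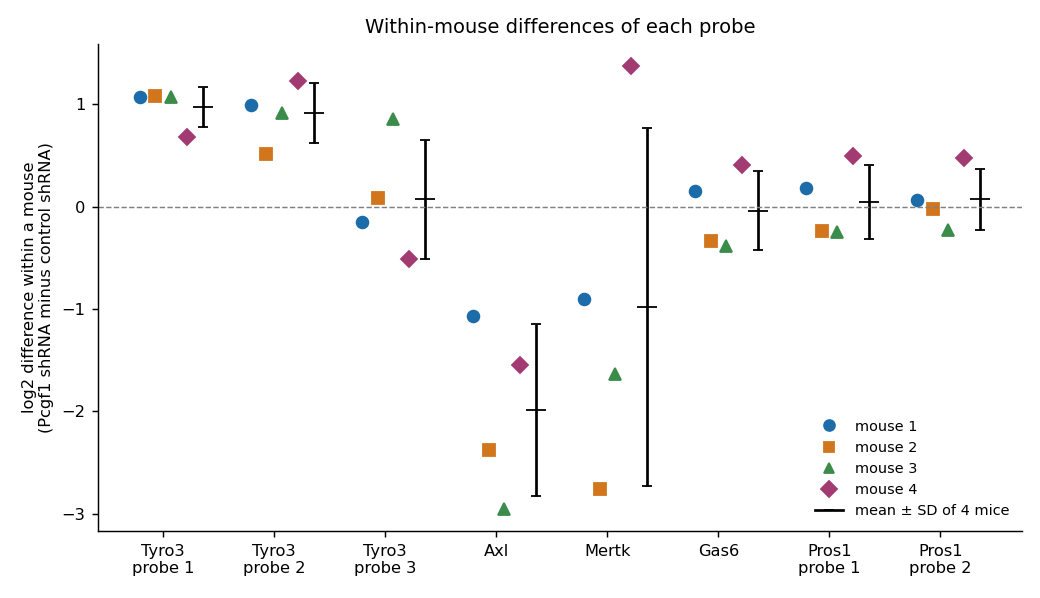
Log2 difference between the Pcgf1 and the control shRNA culture of each mouse (points) for the 8 probes, with the mean and SD of the 4 mice in black. Tyro3 probes 1 and 2 lie above 0 in 4 of 4 mice and Axl below 0 in 4 of 4, while Mertk spans −2.76 to 1.37, with spots near background.

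Checks of the series were as follows. The Pcgf1 transcript was left at 0.378 to 0.410 times the control level in the 4 mice. Between 54.8% and 62.0% of the 43379 spots of an array were well above background, 0 were saturated, and the number of arrays limits the precision. Both arrays of mouse 4 stood apart on the first principal component (44.8 and 38.3 against −30.1 to 2.9). For the labelled cell type 13 stem and progenitor markers were looked up, of which 12 were above background on all 8 arrays. So were 12 of 19 monocyte and macrophage markers and 13 of 13 megakaryocyte markers on the array, so detection does not identify the cell type. Among the stem and progenitor markers 1 gene rose, Cd34, the sialomucin of early progenitors. Its log2 change was 0.94 (SE 0.13, limma adjusted p 0.0251, higher in 4 of 4 mice). The Cd34 call was lost without mouse 1, 2 or 3 (adjusted p 0.159, 0.352 and 0.175), where 1, 0 and 0 of all genes passed. Without mouse 4 both Cd34 and the progenitor factor gene Myb passed, where 2.1% of all genes did. With mouse as a block, where 5.32% of all genes passed, Cd34 and the homeobox gene Meis1 (0.80, adjusted p 0.0318) were higher and Ly6a, which encodes Sca-1, was lower (−0.68, 0.0285). Once mouse 4 was left out, Cd34 alone of the 12 passed with the block (0.838% of all genes did), and the Meis1 and Ly6a calls were lost. The median of the 12 measured stem and progenitor markers was −0.01, with 7 below 0.

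The genes with profiles nearest to that of Tyro3 over the 8 arrays were looked up among 11715 genes with a symbol, by the root mean square distance between centred log2 values. They were Grasp (distance 0.11), which encodes a scaffold protein, the ETS factor gene Etv4 (0.13), the glycosyltransferase gene Galnt12 (0.13), the Src family kinase gene Lck (0.14) and the HMG-box factor gene Sox4 (0.14). The median distance from Tyro3 was 0.53. All of the 5 were higher with the Pcgf1 shRNA, by 1.00, 0.81, 1.11, 0.91 and 0.86 on the log2 scale, which the likeness to Tyro3 fixes. Nearest to Gas6 were Cpb2 (0.17), a carboxypeptidase that restrains fibrin breakdown, and Emp2 (0.19). Nearest to Pros1 were Gucy1b1 (0.12), a subunit of soluble guanylate cyclase, and Fam131a (0.12).

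**Figure D4:**
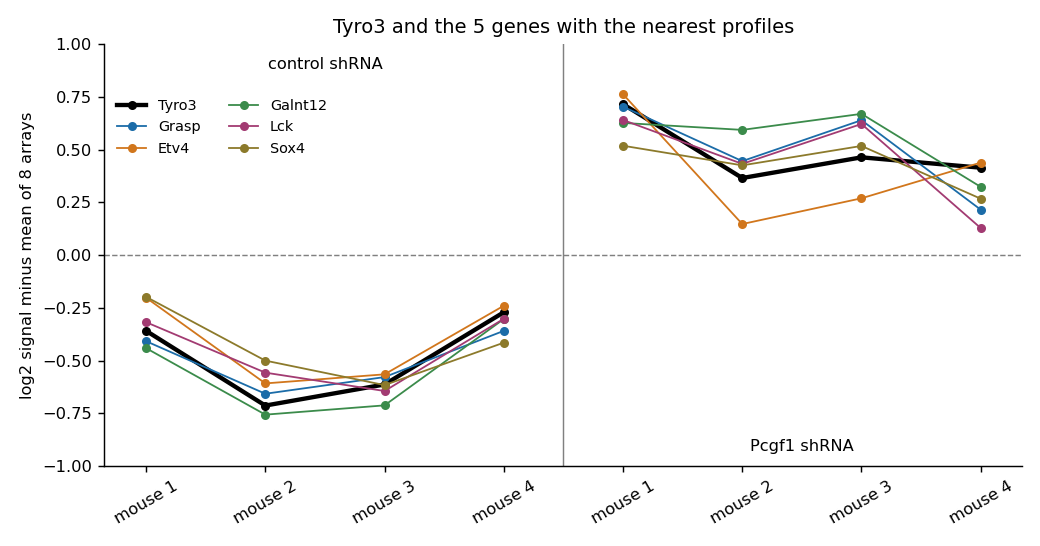
Log2 signal minus the mean of the 8 arrays for Tyro3 (thick black line) and the 5 genes with the nearest profiles, by mouse within each group. Mouse 1 is the highest of the Pcgf1 shRNA cultures for Tyro3, at 0.72, and mouse 2 the lowest of its controls, at −0.71.

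The genes beside Tyro3 on chromosome 2 in the annotation did not share its difference. Taken by position, 2 protein-coding genes on each side, 3 of the 4 were measured. Rpap1, the nearest on one side, stood at 0.02 (limma adjusted p 0.961), Mga, the nearest on the other, at 0.09 (0.842) and Mapkbp1 at 0.14 (0.631). Ltk was not kept by the filter. The difference between Tyro3 and these genes was not tested.

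The engulfment of dying cells, the process that TAM receptors serve, was covered by 33 other genes, 28 of them measured. Of these 0 passed without a block (0.763% of all genes did), and with mouse as a block 3 fell and 0 rose, where 5.32% of all genes passed (2.91% higher, 2.42% lower). The 3 were Anxa1 (−0.55, adjusted p 0.0499), which encodes annexin A1, and, chosen after their values were seen, the scavenger receptor gene Cd36 (−1.04, 0.0330; −0.30 with normexp correction), which was above background on 2 of 4 arrays with the Pcgf1 shRNA, and Sirpa, the receptor for the "do not eat me" signal Cd47 (−0.47, 0.0334). With fewer mice these calls changed: without mouse 4 only Cd36 of the 28 passed with the block (0.838% of all genes did). Without mouse 1, 2 or 3 none of the 3 named genes passed (adjusted p 0.0678 to 0.179). In those fits 284, 0 and 306 of all genes passed, so without mouse 2 no call could remain. Of the 28, 24 were above background on all 8 arrays. Their median was −0.06, beside 0.00 over all genes, with 16 of the 24 below 0. Lrp1, the receptor that takes up cells displaying calreticulin, stood at −1.06 (SE 0.31, adjusted p 0.216) and Calr, the gene of calreticulin, at 0.32 (0.297). Abca1, a lipid exporter that engulfing cells induce, stood at −1.75 (adjusted p 0.253), −0.38 with normexp correction and −1.13 without mouse 3, and 2 of its 4 arrays after knockdown were well above background.

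Genes whose products work with TAM receptors inside the cell or at its surface formed a list of 25 measured genes. Of these 0 passed without a block, and with mouse as a block 1 fell, where 2.42% of all genes did. It was Tulp1 (−0.45, adjusted p 0.0376; −0.27 with normexp correction), a tubby-like protein that bridges Mertk to apoptotic debris in the retina. That call was lost without any 1 of the mice (adjusted p 0.0650 to 0.165), in fits where 0 to 306 of all genes passed (0 without mouse 2). The median of the 24 genes above background on all 8 arrays was −0.03. Lgals3, which encodes galectin-3, a further reported ligand of Mertk, stood at −1.16 (SE 0.48, adjusted p 0.386) and was lower in 4 of 4 mice. The phospholipase gene Plcg1 stood at 0.41 (adjusted p 0.365) and the sheddase gene Adam10 at −0.25 (0.609).

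Carboxylation of the ligands depends on the vitamin K cycle. Of 12 measured genes of that cycle and of other Gla proteins 0 passed without a block, and with mouse as a block 1 fell (2.42% of all genes did), F10 (−0.89, SE 0.41 without the block, adjusted p 0.0239 with it), the gene of coagulation factor X. It did not pass with the block once mouse 2 (adjusted p 0.113) or mouse 4 (0.0714) was left out, where 0 and 145 of all genes passed. The 11 genes above background on all 8 arrays had a median of −0.02. Ggcx, the carboxylase itself, stood at 0.16 (adjusted p 0.667). Among 15 measured receptor tyrosine kinases of other families 0 passed without a block, and with it 2 rose (2.91% of all genes did), Pdgfrb (0.69, adjusted p 0.0208) and, chosen after its values were seen, Tie1 (0.36, 0.0489; 0.22 with normexp correction). Neither passed without mouse 4 (0.0607 and 0.0714), and across the 4 mice left out in turn Tie1 did not pass and Pdgfrb passed without mouse 3 only (0.0444). Over all genes 0 to 306 passed in those 4 fits (0 without mouse 2). The insulin-like growth factor receptor gene Igf1r stood at 0.34 (0.334), and the median had no settled sign: it was 0.07 over the 15, −0.03 over the 13 above background on all 8 arrays, −0.04 without a filter and −0.02 with normexp correction.

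**Figure D5:**
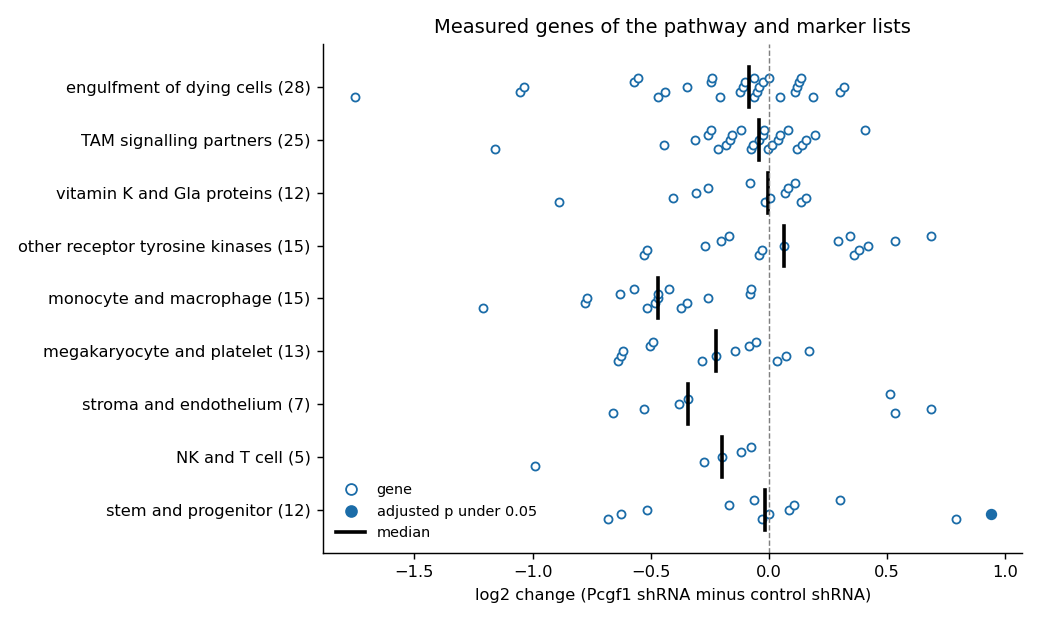
Log2 change of the measured genes of each list (open circles; filled where the adjusted p is under 0.05 without a block), with the number measured in brackets and the median as a black line. The monocyte and macrophage genes lie below 0, 3 of the 15 having passed the filter through the controls only, and Cd34 is the 1 filled symbol.

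Measured markers of monocytes and macrophages, cells that carry TAM receptors, stood below 0. The 12 above background on all 8 arrays were all below 0, with a median of −0.47, beside 0.00 over all genes. The 3 others passed the filter through the control arrays only. Over all 15 the median was −0.35, −0.53, −0.79 and −0.23 in mice 1 to 4. Of the 15, 0 passed without a block and 2 fell with it (2.42% of all genes did), among them Ccr2 (−1.21, adjusted p 0.0335), the receptor of inflammatory monocytes. With the block Ccr2 alone of the 15 passed without mouse 4 (0.0455), where 0.838% of all genes did. The Ccr2 call was lost without mouse 1, 2 or 3 (0.0702 to 0.131), where 284, 0 and 306 of all genes passed. Itgam, named after its values were seen, alone of the 15 passed in the fit without the block once mouse 4 was left out. There 2.1% of all genes passed. Mpeg1 stood at −0.77 (0.232) and Marco at −0.37 (0.462). The summed linear level of the 19 markers on the array, in multiples of the 75th percentile, was 292 to 444 in the controls and 250 to 386 with the Pcgf1 shRNA, lower in 3 of 4 mice. In mice 1 to 4 the sum was 379, 444, 398 and 292 in the controls and 386, 336, 269 and 250 with the Pcgf1 shRNA. Axl read lower in each of the 4 mice, and Mertk lower in mice 1, 2 and 3 and higher in mouse 4. The brightest marker, Lyz2, weighs most in the sum (control mean 8.22 on the log2 scale, with Mpeg1 next at 4.77). Of the 19, 12 were above background on all 8 arrays, and Vsig4, a marker of resident macrophages, was above it on 0. The part of these cells in the Axl and Mertk values was not tested.

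The summed level of the megakaryocyte markers was highest in mouse 4, as Pros1 was. All 13 markers on the array were above background on all 8 arrays. With or without the block 0 passed (5.32% and 0.763% of all genes did). Their summed level was 224 and 242 in the control and Pcgf1 shRNA cultures of mouse 4 and 93.5 to 160 in the other 6 cultures. The list median was −0.22 (0.15, −0.39, −0.81 and 0.11 in mice 1 to 4), and it was −0.03 without mouse 3 and −0.40 without mouse 1. Among its genes were Clec1b, a platelet lectin receptor gene, at −0.62 (adjusted p 0.582) and Cd9 at −0.64 (0.348). Stromal and endothelial markers had summed levels of 2.27 to 2.91 in the controls and 2.65 to 3.00 with the Pcgf1 shRNA, higher in 4 of 4 mice. Of those 16, 5 were above background on 0 arrays, among them Col3a1 and Dcn; 0 of 7 measured genes passed without a block and Pdgfrb and Pecam1 (0.51, adjusted p 0.0313) rose with it (2.91% of all genes did), though neither passed without mouse 4. The median of the 7 was −0.34, with Vcam1 at −0.66, Kdr at −0.53, Sparc at −0.38 and Col1a2 at −0.34, none of which passed with or without the block. NK and T cell markers had summed levels of 5.45 to 8.37 in the controls and 5.00 to 6.57 with the Pcgf1 shRNA. These sums were lower with the Pcgf1 shRNA in 4 of 4 mice. The highest was that of mouse 4 among the controls and that of mouse 2 among the Pcgf1 shRNA cultures. Gzmb and Nkg7 weigh most in them, with control means of 1.72 and 1.37 on the log2 scale. Klrd1, Cd3e and Cd4 had control means of −3.24, −3.54 and −3.94. Of the 11 markers on the array, 5 were above background on 0 arrays, among them Ncr1 and Cd8a. Of 5 measured genes 0 passed with or without the block (5.32% and 0.763% of all genes did). The part of these cells in the Pros1 and Gas6 values was not tested.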

How the data were processed

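Processed intensity in the deposited spot files is, per the file headers, the scanner signal with its background removed, not normalized between arrays; Agilent Feature Extraction 10.1 is named in the submitters' processing notes. The value table the authors deposited is on a log2 scale and centred per probe; it over 10070 bright probes followed the spot files (r of 1.00 between columns' differences, slope at least 1.00), so its direction and scale are known and its exact centring is not stated. Its column medians were 0.05, 0.11, 0.10 and −0.13 (controls of mice 1 to 4) and 0.10, −0.05, −0.11 and −0.20 (Pcgf1 shRNA).

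Log2 intensities were shifted to the 75th percentile of each array's non-control spots. Per the file headers, other deposited columns hold flags and raw intensity. Spots flagged as non-uniform (242 values) were left out and spots of a probe averaged. Through their RefSeq accession 24375 of 41174 probes were named (GRCm38.p6); the brightest kept probe stood for a gene. The comparison used limma 3.58.1 and R 4.3.3 (two-sided, Benjamini-Hochberg over all genes, adjusted p 0.05). The fit without the block was also run on simulated data, with noise drawn independently for each array. Arrays of a mouse deviate together here, which the simulation leaves out, so nothing is read from it. Numbers pair the cultures by animal, per the labels; after removal of group means, both arrays of each mouse deviated together (r across genes 0.44, 0.48, 0.41 and 0.64). As the labels do not name the test, the fit without the block was taken as the main one. It leaves out the pairing by mouse, which the fit with the block uses. For Gas6 the SE was 0.36 without the block and 0.15 with it.

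Members, lists and the naming rule (the family, Pcgf1, the 4 genes of each list with the smallest p, the nearest profiles) were chosen with earlier results of these data known; not every gene the rule takes is reported here. Normexp used the raw median spot intensity, as no mean signal is in the files.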

Additional observations from a re-analysis of the deposited data

Results flagged for a closer look

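Within a group of 4 arrays, 1 array stood far from the other 3 in 7 of 86 groups checked. In 5 of the 7 it was an array of mouse 4. The rule flags about 1 in 20 independent groups by chance, but these groups share the same 8 arrays. No excess over chance is therefore read from the count. Fam131a was taken for its likeness to Pros1, in which mouse 4 also stood highest. The second Pros1 probe read −1.0 in the Pcgf1 shRNA culture of mouse 4, against −2.46 to −2.26 in the other mice. In the control of mouse 4 Lrp1 read 0.43 (others 1.54 to 1.66), F10 3.80 (5.02 to 5.12), Sirpa 4.40 (5.16 to 5.30) and Fam131a −1.18 (−2.56 to −2.35). Plcg1 read −2.93 in the Pcgf1 shRNA culture of mouse 2 (−2.84 to −2.83), and Ggcx −2.10 in the control of mouse 1 (−2.40 to −2.37).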

How the results depend on the processing

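The count of genes past the threshold moved most. limma called 132 genes (103 higher, 29 lower), 921 with mouse as a replicate block (503 higher, 418 lower), 77 with normexp correction (52 higher, 25 lower) and 0 without the filter on dim probes (2199 at an unadjusted p under 0.05). Leaving out both arrays of 1 mouse gave 0 to 363 genes without the block (0 without mouse 2 or 3, with 1000 and 1089 at an unadjusted p under 0.05) and 0 to 306 with it (0 without mouse 2, with 2435 unadjusted, and 284 without mouse 1). The size of the Tyro3 difference held between 0.95 and 1.08 over those mice, and that of Axl between −2.29 and −1.66. In the authors' value table Tyro3 stood at 0.97 and Axl at −1.47, outside that range. The check of that table against the spot files covered bright probes only, and Axl is not among them. Normexp correction gave 0.38 for Tyro3 and −0.41 for Axl. It starts from the raw median intensity, removes background in another way and adds an offset of 50, and the part of each was not tested. Mertk ranged from −1.77 to −0.39. Changes near 0 turned sign: Gas6 ranged from −0.19 to 0.077 (0.059 without mouse 2, 0.077 without mouse 3), Pros1 from −0.10 (without mouse 4) to 0.15, Gucy1b1 from −0.29 to 0.054 and Rpap1 from −0.042 to 0.055, or −0.009 with normexp. The block of mouse changed no call of Gas6 or Pros1. Values of Axl, Mertk and the third Tyro3 probe lie near the detection limit, which limits their precision. The list counts without mouse 4, the list medians under each setting and the settings of genes outside the family were added after the data were seen.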
